A study of Mus musculus with 6 samples.

Results

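Alpha and beta tubulins are the proteins that pair into the dimers from which microtubules are built. The 10 genes described here are 5 alpha tubulins (Tuba1a, Tuba1b, Tuba1c, Tuba4a, Tuba8) and 5 beta tubulins (Tubb2a, Tubb2b, Tubb4b, Tubb5, Tubb6) of mouse liver. They were picked by gene symbol from a table of 28450 genes, with their values in Acsm3 knockout and control livers already known. Their knockout-to-control differences are therefore given as a description. The fit over all genes also covered these genes, but nothing is read from its calls on them. Levels are in FPKM, fragments scaled to the exon length of the gene and to the library total. In all, 10996 genes averaged 1 FPKM or more over the 6 mice and were tested, and 9 of the tubulins are among them. Tuba8 lay below that level and is described by its values only. In short, 9 of the 10 tubulins were higher in every knockout liver than in any control liver, as were 33.9% of all genes tested. Tubb2a was higher by the widest margin, and Tuba4a had overlapping groups.

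The livers came from 3 male mice labelled as Acsm3 knockout and 3 male mice labelled as control, whose genotype label is WT. All 6 were 12 weeks old and ate a normal diet. The Acsm3 protein activates medium-chain fatty acids in mitochondria. The labels and design text used here do not say how the allele was made, whether the gene is lost in the whole animal or in hepatocytes alone, or which strain was used. Each mouse gave 1 library of poly(A)-selected RNA.

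Microtubules give liver cells their tracks for secretory vesicles, bile canalicular membrane traffic and lipid droplets, and they form the mitotic spindle. Alpha and beta tubulin chains are folded by the chaperonin CCT and by a set of tubulin cofactors, and are made in near-equal amounts as protein. Tubulin messenger RNA is also under autoregulation: when free dimers are in excess, the factor TTC5 binds the start of the growing tubulin chain at the ribosome, and the messenger is degraded with the help of SCAPER and the CCR4-NOT deadenylase.

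Acsm3 measured 33.2, 34.4 and 32.2 FPKM in the controls against 0.668, 2.92 and 1.08 FPKM in the knockouts, so every library matched its label (log2 fold change -3.84 ± 0.29 SE, limma adjusted p = 0.00338). Estimated depth was 15400000 to 16300000 fragments per mouse. Of the genes tested, 1532 rose and 287 fell in the knockouts at an adjusted p under 0.05. That split was 830 to 735 after median-ratio scaling and 752 to 603 after quantile scaling. The first principal component, with 56.1% of the variance, placed the controls at -17.3, -19.3 and -25.9 and the knockouts at 24.6, 27.7 and 10.1, so knockout 3 lay nearest the controls. Fold changes of single genes are log2(FPKM + 1) differences, knockout minus control, with the SE moderated by limma, and this scale understates the change of genes of low FPKM. With 3 mice in each group, the p-values rest on the spread between those animals. Values of single mice are given in the order 1, 2, 3 of each group.

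Autoregulation reads the start of the growing chain, which the first 4 codons of a tubulin messenger encode. The first 30 coding bases of 9 tubulins are shown with these codons in capitals, 5′ to 3′, from GENCODE M21 transcripts (GRCm38):
Tubb2a: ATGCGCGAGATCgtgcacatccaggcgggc
Tubb2b: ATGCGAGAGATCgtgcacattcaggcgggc
Tubb4b: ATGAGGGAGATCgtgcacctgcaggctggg
Tubb5: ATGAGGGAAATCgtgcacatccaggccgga
Tuba1a: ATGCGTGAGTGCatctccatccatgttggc
Tuba1b: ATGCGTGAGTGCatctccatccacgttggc
Tuba1c: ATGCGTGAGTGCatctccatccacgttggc
Tuba4a: ATGCGCGAGTGCatttcagtccatgtgggg
Tuba8: ATGAGGGAATGCatatcggtccatgtgggt
The first 12 bases were identical in Tuba1a, Tuba1b and Tuba1c. Tuba4a differed from Tuba1b at 1 of these bases and Tuba8 at 3. Against Tubb2a, Tubb2b differed at 1 base, Tubb4b at 2, and Tubb5 and Tubb6 at 3 each. In the 9 sequences shown, these 12 bases encode Met-Arg-Glu-Cys in each alpha tubulin and Met-Arg-Glu-Ile in each beta tubulin. The base differences among the sequences shown therefore leave the encoded chain start unchanged within each family.

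Tubb2a is a beta tubulin best known from neurons and also made in other tissues. It lies on the minus strand of chromosome 13 at 34074274 to 34078007 (GRCm38). Tubb2a was at 13.4, 8.90 and 10.8 FPKM in the controls and at 50.8, 70.3 and 53.1 FPKM in the knockouts. The lowest knockout stood 37.3 FPKM above the highest control. The means were 11.0 ± 2.27 and 58.1 ± 10.7 FPKM (SD, n = 3 each), a ratio of 5.27, and the log2 fold change was 2.30 ± 0.17. These levels rest on an estimated 227 to 352 fragments in a control and 1276 to 1739 in a knockout.

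The 250 bases upstream of the Tubb2a start are printed because this gene differed most in FPKM. They come from RefSeq (GRCm38.p6, chr13:34078009-34078258, minus strand), with the letters of the motifs searched in capitals:
Tubb2a: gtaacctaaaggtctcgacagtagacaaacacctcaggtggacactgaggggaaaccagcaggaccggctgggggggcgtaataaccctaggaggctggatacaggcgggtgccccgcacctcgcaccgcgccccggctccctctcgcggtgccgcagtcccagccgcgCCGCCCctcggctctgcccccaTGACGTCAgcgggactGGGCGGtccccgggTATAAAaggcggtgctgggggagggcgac
Both strands were searched for the TATA box (letters TATAAA), the CCAAT box (letters CCAAT), the GC box (letters GGGCGG), the cAMP response element (letters TGACGTCA) and the E-box (letters CACGTG), none of which can hold another of them. Tubb2a held the TATA box with its first base at -29 from the start, the cAMP response element at -59, and 2 GC boxes. Among 32851 mouse promoter windows of this length, 12.4% held the TATA box, 1.55% the cAMP response element and 32.7% the GC box. Of the 8 tubulins with a promoter entry, only Tubb2a held the TATA box or the cAMP response element. A match describes the letters and not a bound site.

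Tubb2b, the close relative of Tubb2a and in the brain a tubulin of migrating neurons, lies beside it at 34126748 to 34130466 on the same strand. The pair spans 56.2 kb. Tubb2b was at 0.187, 0.165 and 0.139 FPKM in the controls and at 0.923, 3.62 and 2.43 FPKM in the knockouts. An estimated 5 to 7 fragments stand behind each control value and 33 to 127 behind each knockout value. The gene passed the 1 FPKM filter only through the knockouts. The means were 0.164 ± 0.0240 and 2.32 ± 1.35 FPKM, a ratio of 14.2. The log2 fold change of 1.42 ± 0.30 depends on the pseudocount, at 3.02 with 0.1 and 0.49 with 5, and without knockout 2 the gene fell below the filter. Tubb2b remained a trace beside Tubb2a, at 1.39%, 1.86% and 1.29% of its FPKM in the controls and 1.82%, 5.15% and 4.57% in the knockouts.

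The reads of this pair can be hard to part. Over 1338 coding bases they differ at 47, and their last 60 coding bases differ at the 3 in capitals:
Tubb2a: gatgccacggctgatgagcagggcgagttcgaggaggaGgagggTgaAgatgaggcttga
Tubb2b: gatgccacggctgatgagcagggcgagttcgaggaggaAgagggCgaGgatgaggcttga
Of the 100-base windows of Tubb2a transcripts, 36.9% also occur in a transcript of another gene, and 543 windows are shared with Tubb2b. No source used here tells how fragments that match both genes were counted, so the low Tubb2b values are uncertain.

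Tubb4b, a widely made beta tubulin and a main one of cilia, was the beta tubulin of highest level in the controls. It lies on the minus strand of chromosome 2 at 25222160 to 25224702. Tubb4b was at 31.4, 25.4 and 22.5 FPKM in the controls and at 37.6, 43.3 and 51.5 FPKM in the knockouts. Every knockout was above every control. The means were 26.5 ± 4.53 and 44.1 ± 6.96 FPKM, a ratio of 1.67, with a log2 fold change of 0.72 ± 0.15. Tubb4b shares 411 windows of 100 bases with the pseudogene Tubb4b-ps1, which was at 1.19, 0.567 and 0.762 FPKM in the controls and at 0.817, 1.76 and 1.80 FPKM in the knockouts.

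The upstream bases of Tubb4b (RefSeq, GRCm38.p6, chr2:25224703-25224952, minus strand) are shown for contrast with Tubb2a, again with motif letters in capitals:
Tubb4b: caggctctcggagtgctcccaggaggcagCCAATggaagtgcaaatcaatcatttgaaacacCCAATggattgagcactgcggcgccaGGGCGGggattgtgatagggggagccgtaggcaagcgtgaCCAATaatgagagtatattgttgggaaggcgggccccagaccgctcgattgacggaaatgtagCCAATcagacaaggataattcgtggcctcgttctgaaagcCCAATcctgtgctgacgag
This window held the CCAAT box 5 times and the GC box 1 time. The CCAAT box was found in 33.9% of all promoter windows and in 4 of the 8 tubulins, namely Tuba1a, Tuba1c, Tubb4b and Tubb5. The E-box, found in 6.02% of windows, was present in Tuba8 and Tubb5.

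Tubb5, the common beta tubulin of dividing cells, lies on the minus strand of chromosome 17 at 35833921 to 35838306. Tubb5 was at 10.0, 7.76 and 7.44 FPKM in the controls and at 16.1, 20.6 and 13.8 FPKM in the knockouts. Its means were 8.40 ± 1.40 and 16.9 ± 3.44 FPKM, a ratio of 2.01 and a log2 fold change of 0.92 ± 0.16. The groups did not overlap, and knockout 2 was the highest and knockout 3 the lowest of the knockouts. Tubb6, a beta tubulin made in many non-neural tissues, lies on chromosome 18. Tubb6 was at 5.92, 5.46 and 3.95 FPKM in the controls and at 8.04, 9.93 and 8.59 FPKM in the knockouts. Its means were 5.11 ± 1.03 and 8.85 ± 0.974 FPKM, a ratio of 1.73 and a log2 fold change of 0.70 ± 0.14. None of the 100-base windows of Tubb5 or Tubb6 occurs in another gene's transcript.

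**Figure D1:**
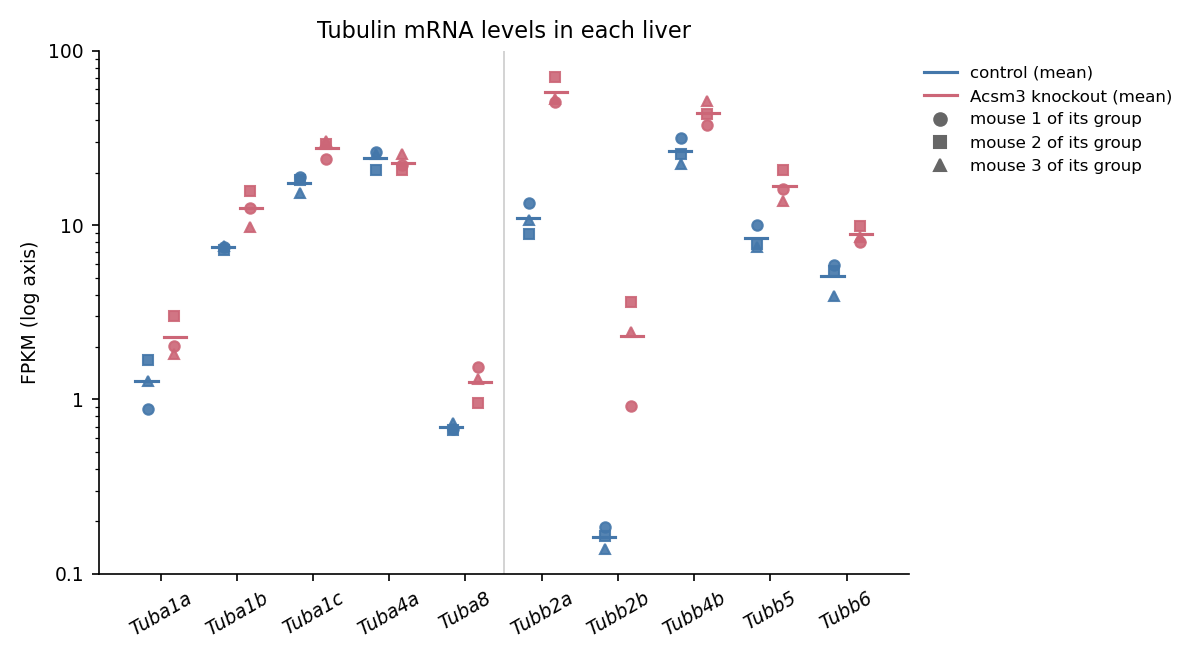
FPKM of the 10 tubulins in each liver on a log axis, controls and knockouts side by side, with points for mice and bars for group means. Tubb2a moves from 8.90 to 13.4 FPKM in the controls to 50.8 to 70.3 FPKM in the knockouts, while the Tuba4a groups overlap.

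Among the alpha tubulins, Tuba1a, Tuba1b and Tuba1c form a cluster of 106.7 kb on chromosome 15. Tuba1c lies on the plus strand at 99029891 to 99038110 and was the strongest of the 3. Tuba1c was at 18.8, 18.2 and 15.4 FPKM in the controls and at 23.8, 29.2 and 30.3 FPKM in the knockouts. Its means were 17.4 ± 1.83 and 27.8 ± 3.47 FPKM, a ratio of 1.59 and a log2 fold change of 0.64 ± 0.12. Tuba1b, on the minus strand at 98931425 to 98934565, is the alpha tubulin most cells make throughout life. Tuba1b was at 7.54, 7.24 and 7.57 FPKM in the controls and at 12.5, 15.7 and 9.69 FPKM in the knockouts. The coefficient of variation was 2.42% among the controls and 23.8% among the knockouts. The means were 7.45 ± 0.181 and 12.6 ± 3.0 FPKM, a ratio of 1.69 and a log2 fold change of 0.66 ± 0.16.

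Tuba1a, the alpha tubulin of developing neurons, lies on the minus strand at 98949837 to 98953703 and was scarce in liver. Tuba1a was at 0.882, 1.68 and 1.27 FPKM in the controls and at 2.03, 3.01 and 1.82 FPKM in the knockouts. The gap between the highest control and the lowest knockout was 0.136 FPKM, at an estimated 26 to 48 fragments per control. Its means were 1.28 ± 0.400 and 2.28 ± 0.635 FPKM, a ratio of 1.79 and a log2 fold change of 0.53 ± 0.18. The coding sequences of Tuba1a and Tuba1b are 98.3% identical, those of Tuba1b and Tuba1c 97.9%, and those of Tuba1a and Tuba1c 97.1%. Windows of 100 bases shared with any other gene made up 65.1% of Tuba1a, 69.5% of Tuba1b and 53.4% of Tuba1c. Those shared with another of these 3 genes made up 38.4%, 52.3% and 53.4%, so the split among the 3 is uncertain. The same-strand gene Gm49450 also holds 473 exon bases of Tuba1a (26.2%) and 426 of Tuba1b (22.7%).

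Tuba4a, an alpha tubulin known from platelets, muscle and neurons, was the alpha tubulin of highest level in the controls. It lies on the minus strand of chromosome 1 at 75214228 to 75219865. Tuba4a was at 26.4, 20.7 and 25.5 FPKM in the controls and at 22.1, 20.6 and 25.6 FPKM in the knockouts. The groups overlapped, at 24.2 ± 3.06 and 22.8 ± 2.57 FPKM, a ratio of 0.940 and a log2 fold change of -0.08 ± 0.12. Of its exon bases, 1379 (37.3%) also belong to the kinase gene Stk16 on the opposite strand. Stk16 was at 14.0, 11.9 and 10.5 FPKM in the controls and at 11.5, 9.52 and 8.92 FPKM in the knockouts, and if strand was not kept the reads of the 2 genes cannot be told apart over these bases.

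The upstream bases of Tuba4a (RefSeq, GRCm38.p6, chr1:75219295-75219544, minus strand) are shown because its groups overlapped:
Tuba4a: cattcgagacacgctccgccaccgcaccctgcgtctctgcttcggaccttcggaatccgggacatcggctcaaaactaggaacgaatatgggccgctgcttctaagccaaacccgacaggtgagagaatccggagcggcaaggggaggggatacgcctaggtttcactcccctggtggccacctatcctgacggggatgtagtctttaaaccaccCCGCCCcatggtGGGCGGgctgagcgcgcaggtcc
This window lies inside the span given above for Tuba4a, whose 5′ end is at 75219865, so the RefSeq start used here differs from that end. Of the 5 motifs, this window held the GC box alone, in 2 copies. The GC box was also present in Tuba1a, Tuba1b, Tubb2a and Tubb4b.

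Tuba8, an alpha tubulin known from muscle, testis and brain, is a plus-strand gene of chromosome 6 (121210696 to 121226854). Tuba8 was at 0.676, 0.670 and 0.731 FPKM in the controls and at 1.53, 0.953 and 1.31 FPKM in the knockouts. Its mean over the 6 mice was 0.979 FPKM, just under the filter, while the tubulins next above it, Tubb2b and Tuba1a, averaged 1.24 and 1.78 FPKM. The group means were 0.692 ± 0.0338 and 1.27 ± 0.292 FPKM, a ratio of 1.83. An estimated 24 to 26 fragments stand behind each control value and 33 to 54 behind each knockout value.

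By the rule used for single genes, 7 of the 9 tested tubulins passed as higher, against 13.9% of all genes tested, and 0 as lower, against 2.61%. The 2 that did not pass were Tuba1a and Tuba4a. Tubb2b, counted among the 7, entered the tested set only through its knockout values. Groups did not overlap, with the knockouts higher, for 8 of the 9, against 33.9% of all genes tested, and with the knockouts lower for 0, against 7.91%. In either direction 41.8% of all genes tested did not overlap. For the calls in either direction that share was 16.5%, and nothing is read from either count because these values chose the genes. The median log2 fold change of the 9 was 0.70, beside 0.13 for all genes. After median-ratio scaling these medians were 0.56 and -0.00, and after quantile scaling 0.54 and -0.03. No tubulin but Tuba4a had a log2 fold change below 0 under any of the settings tried.

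Summed over the 10 genes, tubulin messenger was at 115, 96.2 and 95.2 FPKM in the controls and at 175, 217 and 198 FPKM in the knockouts. The means were 102 ± 11.3 and 197 ± 20.9 FPKM, a 1.93-fold ratio. Beta tubulin messenger accounted for more of the difference than alpha. Summed beta FPKM was 51.2 ± 8.59 in the controls and 130.2 ± 17.1 in the knockouts, while summed alpha FPKM was 51.1 ± 2.97 and 66.7 ± 4.17. Tubb2a made up 49.7% of the added FPKM, Tubb4b 18.7%, Tuba1c 10.9% and Tubb5 8.94%.

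Summed alpha and beta FPKM were close to equal in the controls, and beta exceeded alpha in every knockout. The alpha share of tubulin FPKM was 47.1%, 50.4% and 53.0% in the controls and 35.3%, 32.0% and 34.7% in the knockouts, a difference of means of -16.2 percentage points. Without Tubb2a the alpha share was 56.2% ± 3.23 in the controls and 48.1% ± 1.34 in the knockouts, a difference of -8.08 points, and the summed FPKM of the other 9 genes was 91.2 ± 9.32 and 139 ± 12.3. FPKM compares genes per length, and these values came close to whole fragments when the length was the union of a gene's exons. That union is 1610 bases for Tubb2a, as is its transcript, but 3701 for Tuba4a, whose transcript has 2840. Shares and order of genes thus depend on the length used, and these shares say nothing of the protein.

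The makeup of each family differed between the groups. Within beta tubulin, the Tubb2a share was 21.6% ± 2.70 in the controls and 44.5% ± 3.29 in the knockouts, and the Tubb4b share was 51.7% ± 1.51 and 34.1% ± 5.30. Tubb5 was at 16.4% ± 0.172 and 13.0% ± 1.96 of beta FPKM, so its share was smaller in the knockouts although its FPKM was higher. Within alpha tubulin, the Tuba4a share was 47.3% ± 4.07 in the controls and 34.2% ± 3.99 in the knockouts. The Tuba1c share was 34.2% ± 3.53 and 41.5% ± 2.85. The shares of Tuba1b, Tuba1a and Tuba8 overlapped between the groups.

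**Figure D2:**
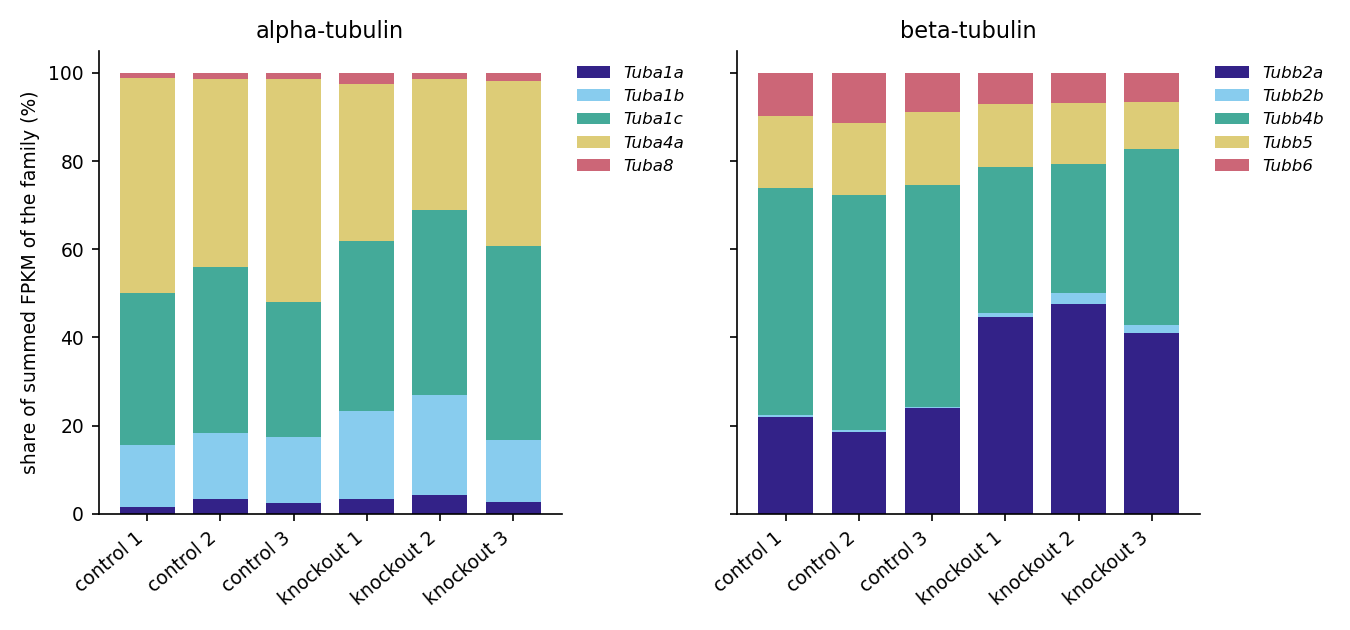
Percent of summed beta tubulin FPKM and of summed alpha tubulin FPKM from each gene, with 1 bar per mouse. Tubb2a takes 21.6% of beta FPKM on average in the controls and 44.5% in the knockouts.

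In the controls the order of FPKM, from high to low, was Tubb4b, Tuba4a, Tuba1c, Tubb2a, Tubb5, Tuba1b, Tubb6, Tuba1a, Tuba8 and Tubb2b. The neighbours Tubb4b and Tuba4a overlapped there, as did Tubb2a with Tubb5 and Tubb5 with Tuba1b. In the knockouts the order was Tubb2a, Tubb4b, Tuba1c, Tuba4a, Tubb5, Tuba1b, Tubb6, Tubb2b, Tuba1a and Tuba8. Overlapping neighbours there were Tubb2a with Tubb4b, Tuba1c with Tuba4a, Tubb5 with Tuba1b, Tuba1b with Tubb6, and Tubb2b with Tuba1a. Tubb2a stood below Tubb4b, Tuba4a and Tuba1c in the controls and headed the order in the knockouts, where its values overlapped those of Tubb4b.

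The knockout livers differed among themselves by gene. Knockout 2 was the highest of the 3 for 6 tubulins, namely Tuba1a, Tuba1b, Tubb2a, Tubb2b, Tubb5 and Tubb6. Knockout 3 was highest for Tuba1c, Tuba4a and Tubb4b, and knockout 1 for Tuba8. Relative to the mean of the knockouts, Tuba1b was at 0.988, 1.24 and 0.769 in knockouts 1, 2 and 3, whereas Tubb4b was at 0.853, 0.980 and 1.17. Without knockout 3 the log2 fold change of Tuba1b was 0.83 and that of Tubb5 1.04, and those of Tubb4b and Tuba1c were 0.60 and 0.57.

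Markers of several cell types also differed between the groups and among the knockouts, and in whole liver more cells of a type cannot be told apart from more RNA per cell. For comparison with the counts below, 13.9% of all genes tested rose and 2.61% fell. The 8 macrophage markers summed to 133 to 204 FPKM in the controls and 219 to 414 in the knockouts, where 4 of 8 rose and 1 fell, with 6 that rose without knockout 3 and 1 without any other mouse. Of those called, Gpnmb passed the 1 FPKM filter only through the knockouts. The 9 stellate cell and fibroblast markers summed to 39.5 to 47.8 and 86.4 to 120 FPKM, and 7 of 9 rose (8 without knockout 3, 5 or 6 without any other mouse). Of these 7, Col1a1 and Col1a2 had control means below 1 FPKM and passed the filter only through the knockouts. The 6 endothelial markers summed to 47.5 to 54.9 and 61.7 to 79.1 FPKM, and 2 of 6 rose, with 3 without knockout 3 and 0 without any other mouse. The 5 neutrophil markers summed to 1.89 to 3.13 and 4.23 to 11.3 FPKM, with Ly6g listed at 0 in every liver, and 3 of the 4 tested met the call rule. These 3, S100a8, Csf3r and Retnlg, passed the filter only through the knockouts, so their count supports nothing. It was 4 without knockout 3 and 0 without any other mouse, with only 2 tested without knockout 1 or knockout 2. The 8 hepatocyte markers summed to 40180 to 48160 FPKM in the controls and 29740 to 32620 in the knockouts, where 1 rose (Hnf4a) and 2 fell (Alb and Ttr). Most of each sum was Alb alone, at 30150 to 37370 FPKM in the controls and 21100 to 24030 in the knockouts. The median log2 fold change of the 8 markers was -0.21. Without any mouse other than knockout 3, and after quantile scaling, 0 of them fell, and after median-ratio scaling 0 rose. With no filter on low values, limma called 5 stellate cell and fibroblast markers and 1 macrophage marker higher, and 0 endothelial, neutrophil or hepatocyte markers in either direction. Each hepatocyte marker was at 121 FPKM or more in every liver, which fits the tissue label.

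Other marker lists were near the floor. The 10 proliferation markers, none at a mean of 1 FPKM, summed to 0.548 to 1.09 FPKM in the controls and 1.72 to 4.26 in the knockouts. Relative to the mean of the knockouts, they stood at 1.24, 1.25 and 0.507 in knockouts 1, 2 and 3, and macrophage markers at 1.14, 1.22 and 0.645. The 5 neural and Schwann cell markers in the table summed to at most 0.709 FPKM in any liver, with Sox10, Snap25 and Stmn2 under 0.1 FPKM in each. The 4 motile cilium markers in the table summed to at most 0.831 FPKM. The 7 biliary markers summed to 5.26 to 5.84 FPKM in the controls and 5.55 to 7.90 in the knockouts. The 8 lymphocyte markers summed to 0.977 to 1.75 and 1.28 to 3.11, and the 5 platelet markers to 1.51 to 2.64 and 2.38 to 5.35. Neither of the 2 genes of these lists that were tested passed. With no filter on low values, limma called 1 biliary marker higher and 0 lymphocyte or platelet markers in either direction. The part of macrophages, stellate cells, endothelial cells, biliary cells, neutrophils, platelets, lymphocytes or dividing cells in the tubulin differences was not tested.

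**Figure D3:**
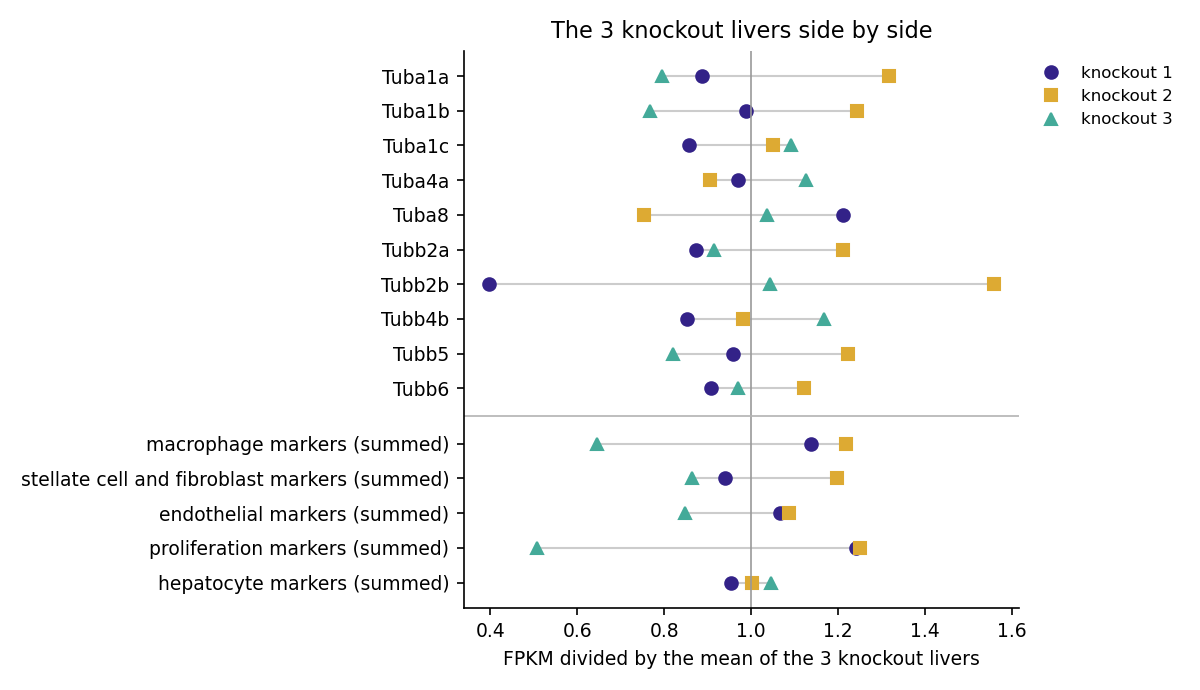
Level in each knockout liver divided by the mean of the 3, for the tubulins and for summed cell type markers. Knockout 3 is highest for 3 tubulins, among them Tubb4b (1.17), and lowest for 3, among them Tuba1b (0.769). Macrophage markers (0.645) and proliferation markers (0.507) are lowest in knockout 3.

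The genes that serve tubulin and microtubules were taken from lists of their own. Over the 9 lists of folding, autoregulation, modification, nucleation, microtubule-binding and motor genes and of other tubulins, 17 of 101 tested genes rose and 0 fell, a share of 16.8% beside 13.9% of all genes tested. Their median log2 fold change was 0.18, beside 0.13 for all genes. After median-ratio scaling 7 rose and 2 fell, and after quantile scaling 4 and 2.

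Of the 10 other tubulins listed, 2 were tested and neither passed. Tubd1, the delta tubulin of centrioles, had a log2 fold change of 0.27 ± 0.13 (limma, adjusted p = 0.198). Tubg1, the gamma tubulin that nucleates microtubules, was at 10.3, 8.89 and 9.21 FPKM in the controls and at 8.36, 8.28 and 9.49 FPKM in the knockouts. The 6 untested ones in the table, with Tubb3 and Tubb4a among them, were at no more than 0.274 FPKM in any liver.

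Among all genes tested, 13.9% rose and 2.61% fell. Of 21 tested folding genes, 2 rose and 0 fell, and their median log2 fold change was -0.01. They were Tbcel, which resembles the tubulin cofactor TBCE, at 0.54 ± 0.08 (limma, adjusted p = 0.0133), and the chaperonin subunit Cct3 at 0.27 ± 0.07 (adjusted p = 0.0453). After median-ratio scaling 1 of the 21 rose and 2 fell. The 3 autoregulation genes, Ttc5, Scaper and Cnot11, gave no call with limma, 0 of them with an unadjusted p under 0.05. Cnot11 had the smallest p, at a log2 fold change of 0.14 ± 0.08 (adjusted p = 0.287). Of 10 tested genes that modify tubulin, Ttll12, of the tubulin tyrosine ligase-like family, rose by 0.37 ± 0.09 (adjusted p = 0.0400) and the others did not pass. None of 9 nucleation genes passed, and the gamma-tubulin ring component Mzt1 had the smallest p among them, at 0.20 ± 0.10 (adjusted p = 0.200). Cct3 and Ttll12 lost their calls without any 1 of the 6 mice (adjusted p up to 0.133), after either scaling and with no filter on low values. Tbcel lost its call without control 2 (adjusted p = 0.0552) or control 3 (adjusted p = 0.0545).

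Among microtubule-associated proteins, 6 of 15 tested genes rose and 0 fell, beside 13.9% and 2.61% of all genes tested. The log2 fold change was above 0 for 15 of 15, with a median of 0.30 beside 0.13 for all genes. The share of all genes above 0 was not counted. The plus-end proteins Clip2 and Mapre3 rose by 0.78 ± 0.16 (limma, adjusted p = 0.0254) and 0.76 ± 0.15 (adjusted p = 0.0265). Clip2, at 0.554, 0.804 and 0.429 FPKM in the controls and 2.14, 1.85 and 1.27 FPKM in the knockouts, passed the 1 FPKM filter only through the knockouts. With no filter neither Clip2 (adjusted p = 0.0658) nor Mapre3 (adjusted p = 0.0653) passed, and without knockout 1 Clip2 was not tested. Map4, the main microtubule-binding protein of non-neural cells, rose from 2.84 ± 0.176 to 4.62 ± 0.513 FPKM, by 0.55 ± 0.09 on the log2 scale (adjusted p = 0.0186). After either scaling 3 of the 15 rose, and the list median was 0.17 after median-ratio and 0.14 after quantile scaling. Without control 1 the count was 1 and without any of control 2, control 3, knockout 1 or knockout 2 it was 0, where the adjusted p of Mapre3 reached 0.0914 and that of Map4 0.0718. Without knockout 3 it was 6, and with no filter 1 of 26. Of 5 tested destabilizing and severing genes none passed with limma, 2 having an unadjusted p under 0.05, and the severing enzyme Spast had a log2 fold change of 0.20 ± 0.07 (adjusted p = 0.101).

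Most kinesins carry cargo to microtubule plus ends, and dynein with dynactin to minus ends. Among all genes tested, 13.9% rose and 2.61% fell. Of 15 tested kinesin genes 2 rose, Kif5b, the heavy chain of conventional kinesin, by 0.46 ± 0.08 (limma, adjusted p = 0.0193) and Kif3a by 0.43 ± 0.10 (adjusted p = 0.0374). Of 21 tested dynein and dynactin genes 6 rose and 0 fell. They included the light chain Dynll1 at 0.53 ± 0.10 (adjusted p = 0.0200), the heavy chain Dync1h1 at 0.49 ± 0.11 (adjusted p = 0.0322) and the light intermediate chain Dync1li2 at 0.46 ± 0.11 (adjusted p = 0.0380). After quantile scaling none of these 5 passed (adjusted p 0.0540 to 0.187), and after median-ratio scaling Kif5b, Kif3a and Dync1h1 did not (0.0585 to 0.113). With no filter Kif5b alone of the 5 passed. Without any 1 mouse other than knockout 3 at most 1 kinesin gene and at most 1 dynein or dynactin gene passed, with adjusted p up to 0.115 for these 5, and without knockout 3 the counts were 4 and 8.

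Actin and intermediate filaments are the other cytoskeletal systems of the cell. Of 24 tested actin genes 14 rose and 0 fell, with a median log2 fold change of 0.64, and of 8 tested intermediate filament genes 5 rose and 0 fell, with a median of 0.76. Of all genes tested, 13.9% rose and 2.61% fell. Tagln2, an actin-binding protein, was at 5.14 ± 0.651 FPKM in the controls and 17.2 ± 5.51 in the knockouts, a rise of 1.52 ± 0.23 (limma, adjusted p = 0.0138). Tmsb10, which binds actin monomers, rose by 1.21 ± 0.25 (adjusted p = 0.0265), and the cross-linker Flna by 1.11 ± 0.22 (adjusted p = 0.0229). Vim, the filament of mesenchymal cells, rose from 3.41 ± 0.628 to 12.6 ± 3.23 FPKM, by 1.60 ± 0.19 (adjusted p = 0.00879). The keratins Krt8 and Krt18, which form the filaments of hepatocytes and bile duct cells, rose by 1.29 ± 0.21 (adjusted p = 0.0158) and 0.94 ± 0.15 (adjusted p = 0.0155). Several of these are also made by the stellate cells and macrophages whose markers were higher, and the part of those cells was not tested.

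With controls 1, 2 and 3 left out in turn, the actin count was 8, 6 and 4 and the filament count 4, 2 and 1. With knockouts 1, 2 and 3 left out in turn, the actin count was 6, 5 and 16 and the filament count 1, 2 and 6. Vim kept its call throughout. After median-ratio scaling the actin count was 12 and the filament count 5, and after quantile scaling 13 and 4. With no filter the counts were 7 and 3, and Tmsb10 and Flna were not called. Tmsb10 and Flna lost theirs without any 1 mouse other than knockout 3 (adjusted p up to 0.0841), as did Tagln2, Krt8 and Krt18 without control 3, Krt8 without control 2, both keratins without knockout 1, and Krt18 without knockout 2.

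**Figure D4:**
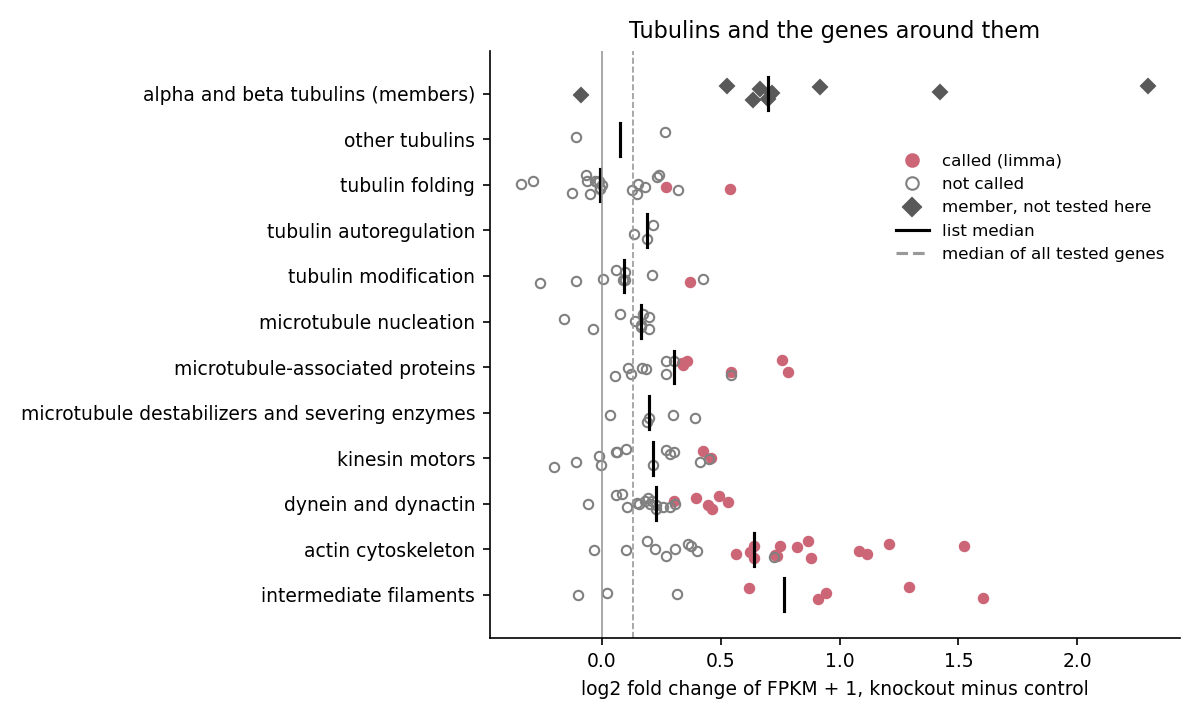
Log2 fold change, knockout minus control, of each tested gene by list, with the median of each list and of all genes (0.13). The microtubule lists have medians between -0.01 and 0.30 and the actin and intermediate filament lists 0.64 and 0.76.

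Genes with the profile nearest to a tubulin over the 6 mice were found by the root mean square difference of log2(FPKM + 1), each centred on its control mean, among 9960 genes. Nearest to the summed tubulins was Abcc3, a basolateral bile salt and conjugate exporter, at a difference of 0.0631. Abcc3 was at 56.1, 46.3 and 45.8 FPKM in the controls and at 94.3, 106 and 93.3 FPKM in the knockouts. Eif2ak3, Aox1, Ets2 and Ablim3 followed at 0.0900 to 0.124. Nearest to Tuba1c was Rgn, a calcium-binding enzyme of hepatocytes, at 0.0419, followed by the lipid droplet protein Plin2 at 0.0553 and by Ms4a4d, Cyp2a12 and Slc35e3. Nearest to Tubb2a were Mup20, Cidec, Mup-ps19, Col1a2 and H2-Eb1, at the wider distances of 0.283 to 0.342. The difference between the groups enters this measure, and it was taken over 6 livers of 2 groups only.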

How the data were processed

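The authors deposited 1 table of FPKM for 28450 genes in 6 libraries. Per the submitters' processing notes, which give no roles, GRCm38, StringTie 1.3.0, HISAT2 2.0.4 and Bowtie2 2.2.6 were used. Whether strand was kept, and how fragments shared by paralogs were handled, no source used here says. Columns were matched to samples by title, and 0 columns of per-sample values were left out. Tubulins, gene lists and tests were chosen with earlier results of these data known.

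Values were analysed as log2(FPKM + 1). The 10996 genes averaging 1 FPKM or more entered limma 3.58.1 in R 4.3.3 (trended eBayes), as knockout minus control. Benjamini-Hochberg adjustment ran over all of them, at a threshold of 0.05. The procedure was tested on simulated data. Depth is an estimate from the steps of FPKM multiplied by union exon length (GENCODE M21): of values below 20 fragments, 98.0% to 98.2% came within 0.1 of an integer. It covers counting error only and entered no test. Positions are those of the table. Coding sequences came from GENCODE M21 and promoters from RefSeq (GRCm38.p6, 8 of 10 tubulins matched, not Tubb2b and Tubb6).

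Named genes were the 10 tubulins, up to 3 passing members of largest fold per list or else the 1 of smallest p, and the 5 genes of nearest profile. Outside this rule, Acsm3 (a check of the labels), Stk16, Tubb4b-ps1, Tubg1, Tubb3, Tubb4a, Ttc5, Scaper and the markers named were chosen after values were seen. Tuba3b and Tubal3 were not analysed here. Alternatives were pseudocounts of 0.1 and 5, quantile and median-ratio scaling, a filter at 5 FPKM or none, limma without trend, a block for the replicate number and leaving out each mouse. Tables and figures used matplotlib 3.10.9, numpy 2.4.6, pandas 2.3.3 and Python 3.11.15.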

Additional observations from a re-analysis of the deposited data

How the results depend on the processing

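The count of genes that rose, 1532, was 544 with no filter, 848 with a filter at 5 FPKM, 830 after median-ratio scaling, 752 after quantile scaling, and 226 to 1968 without 1 mouse. The count that fell, 287, was 106 with no filter, 735 after median-ratio scaling, 603 after quantile scaling, and 55 to 282 without 1 mouse. Of the tubulin and microtubule genes, 17 rose, and this was 4 with no filter, 9 with a filter at 5 FPKM, 7 after median-ratio scaling, 4 after quantile scaling and 0 to 21 without 1 mouse, the 21 without knockout 3. None of them fell, except 2 after either scaling. A fit without 1 mouse has fewer samples, so a lost call need not rest on that mouse. The summed tubulin ratio stayed between 1.73 and 2.06, and the alpha share difference between -17.7 and -14.8 percentage points. With the replicate number as a block, 1672 genes rose and 346 fell, and 17 and 0 of the microtubule genes, while Cct3 (adjusted p = 0.0574) and Ttll12 (0.0607) no longer passed. Same-numbered mice correlated at 0.0918 to 0.187 in their deviations and other pairs at -0.178 to 0.0733, and 6 of 6 correlated best with their own number. The labels name no pairing, so whether same-numbered mice share more than a number is not known. The main test did not pair them. Depth limits Tubb2b most, at an estimated 5 to 7 fragments per control, followed by Tuba8 and Tuba1a.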
